A study of Homo sapiens with 4 samples.

Results

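The cancer-testis antigens described here are the genes of both deposited tables whose symbols start with MAGEA, MAGEB, MAGEC, GAGE, PAGE, XAGE, SSX or CTAG. Of 25343 rows in each table, 87 carried these letters. An antisense transcript (1 row, MAGEA8-AS1) and 7 pseudogenes were left out, which gave 79 member rows. Of these, 70 belonged to the named families. The other 9 are described apart: 7 CTAGE genes and SSX2IP, which share letters with the families, and the readthrough symbol MAGEA10-MAGEA5, which spans MAGEA loci. Near-identical copies were added together before any ratio, so that the 70 family rows became 41 units, a unit being 1 gene or 1 summed set of copies.

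Cancer-testis antigens are proteins made in male germ cells and, in the adult, in few other normal tissues, but made again by many tumours. Peptides of MAGEA, GAGE, SSX and CTAG proteins are presented on the cell surface and recognised by T cells, which is how several of them were found and why they serve as vaccine and T-cell targets. The X-linked families arose by repeated local duplication, and methylation of CpG sites at their promoters is known to keep them silent in somatic cells.

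The 4 RNA sequencing libraries came from 2 human prostate carcinoma lines, with 1 library per group. C4-2B ENZR descends from LNCaP, is resistant to the antiandrogen enzalutamide and was kept in 20 µM of it, whereas LNCaP was grown without the drug. All cells were in medium with 10% fetal bovine serum, and all had received a lentiviral hairpin and antibiotic selection. The control hairpin had no target, and the knockdown hairpin was directed at the coding region of MAOA, the mitochondrial enzyme that breaks down serotonin and noradrenaline. The groups were thus C4-2B ENZR control, C4-2B ENZR MAOA knockdown, LNCaP control and LNCaP MAOA knockdown, and series of 4 values below follow this order. The labels do not say that both lines received the same hairpin, nor that the libraries came from separate cultures, so p-values measure only the spread between these libraries. The lines also differ in a lane-like suffix of their library labels, so line, drug and any library batch cannot be told apart.

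Reads recovered per library numbered 23479051, 23679869, 52550452 and 52012696. Values are CPM, reads relative to the size of the library, scaled by the authors with the trimmed mean of M-values (TMM), each line in a table of its own, and 3 reads correspond to 0.121, 0.122, 0.0529 and 0.0614 CPM. MAOA itself was at 327, 219, 445 and 140 CPM, which left 66.8% of the C4-2B ENZR control level and 31.3% of that of LNCaP, in the direction of the labels. All 10 prostate luminal markers checked were at 1 CPM or more in every library, although the prostate-specific antigen gene KLK3 was low in C4-2B ENZR (3.72 and 6.34 CPM against 2391 and 2716 in LNCaP). Of 10 male germ cell markers, 9 were below 1 CPM in every library (SYCP3 reached 1.37 and 2.11 CPM in C4-2B ENZR), and DAZL, PIWIL1, TNP1, PRM1 and PRM2 were at 0. Their summed level was 1.90, 2.77, 0.740 and 1.15 CPM, so the antigens below were read in cells in which defining germ cell genes were at or near 0.

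Reads were 50 nt long, and many members differ by less than a read can tell. MAGEA3 and MAGEA6, which lie on opposite strands of the Xq28 region, show how little separates such copies. Over 942 coding bases they differ at 18, an identity of 98.1%, and 381 of 893 windows of 50 bases (42.7%) hold no difference. The stretch below, coding bases 583 to 632 counted from the A of the start codon, is one of the places where reads can be told apart. The capitals mark the 4 differing bases (GRCh38, GENCODE 29: MAGEA3 at chrX:152701415-152701464, plus strand, and MAGEA6 at chrX:152767019-152767068, minus strand, each in a single coding exon).
MAGEA3: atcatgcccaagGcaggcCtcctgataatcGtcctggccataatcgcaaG
MAGEA6: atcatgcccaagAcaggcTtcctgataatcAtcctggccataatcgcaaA

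Promoters of MAGEA3, MAGEA6, PAGE1, GAGE12F and SSX2 are shown because CpG methylation at such promoters is how the families are known to be silenced. Their units were strongly detected, that of SSX2 only in C4-2B ENZR. GAGE12F and SSX2 each stand for near-identical copies, and most reads cannot be assigned to 1 of them. The windows are the 250 bases before the start site from RefSeq (GRCh38.p14), with every CpG in capitals. For MAGEA3 (chrX:152698544-152698793, plus strand) and MAGEA6 (chrX:152769690-152769939, minus strand) the windows were identical base for base, so 1 sequence stands for both.
MAGEA3 and MAGEA6: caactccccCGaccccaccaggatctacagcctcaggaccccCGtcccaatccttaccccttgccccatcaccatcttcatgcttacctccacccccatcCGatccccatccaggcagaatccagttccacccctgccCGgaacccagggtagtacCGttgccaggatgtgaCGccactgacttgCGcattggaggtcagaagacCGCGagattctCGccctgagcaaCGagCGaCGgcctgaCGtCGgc
PAGE1, chrX:49695985-49696234, minus strand: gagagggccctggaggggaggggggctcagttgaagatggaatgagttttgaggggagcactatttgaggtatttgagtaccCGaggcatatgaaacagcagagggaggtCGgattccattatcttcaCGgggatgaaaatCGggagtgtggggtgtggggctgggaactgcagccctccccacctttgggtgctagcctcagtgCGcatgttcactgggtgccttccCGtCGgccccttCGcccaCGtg
GAGE12F, chrX:49560592-49560841, plus strand: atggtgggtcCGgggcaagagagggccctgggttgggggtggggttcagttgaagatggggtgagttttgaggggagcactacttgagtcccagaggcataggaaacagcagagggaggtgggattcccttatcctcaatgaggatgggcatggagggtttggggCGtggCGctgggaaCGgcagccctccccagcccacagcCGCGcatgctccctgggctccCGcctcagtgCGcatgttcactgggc
SSX2, chrX:52707228-52707477, minus strand: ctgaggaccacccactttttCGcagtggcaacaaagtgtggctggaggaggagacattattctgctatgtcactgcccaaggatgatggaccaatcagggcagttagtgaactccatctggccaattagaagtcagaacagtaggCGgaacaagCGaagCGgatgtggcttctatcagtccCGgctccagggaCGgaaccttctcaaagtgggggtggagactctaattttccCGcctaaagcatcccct

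The window of MAGEA3 and MAGEA6 held 15 CpG sites, that of PAGE1 9, that of GAGE12F 8 and that of SSX2 7. SSX2B, the copy of SSX2, has a window that shares a run of 201 bases with it. Across the 66 windows listed for 51 family rows the median was 8 CpG sites, with a range of 1 to 18, against 11 over all 35116 windows of RefSeq genes. The 28 windows of units that reached 1 CPM had a median of 8 and the 38 of the other units a median of 7. Many of the 28 are windows of GAGE copies, nearly all with 8 sites, so near-identical copies weigh on that median. No window was listed for MAGEA1, MAGEA10, CTAG1 or CTAG2, which reached 1 CPM in at least 1 library. The letters CCGGAA, the core bound by ETS factors, were searched on both strands (TTCCGG on the other). They stood in 4 family windows, those of MAGEA3, MAGEA6, MAGEB6 and MAGEB16, and in 14.5% of all windows. In the sequence above they read cCGgaa (the reverse strand has ttccgg). Of the 4, MAGEA3 and MAGEA6 were strongly detected, MAGEB6 stayed below 1 CPM and MAGEB16 was at 0 in every library. Methylation was not measured in these samples.

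Of the 41 family units, 13 reached 1 CPM in at least 1 library, 20 had some reads but stayed below 1 CPM, and 8 were at 0 in all 4 libraries. All 62 family rows with a chromosome in RefSeq lie on the X chromosome. The 13 detected units were 6 of 10 in MAGEA (MAGEA1, MAGEA2, MAGEA3, MAGEA6, MAGEA10 and MAGEA12), the GAGE unit of 22 rows, PAGE1 of 5 PAGE units, XAGE1 and XAGE2 of 4 in XAGE, SSX2 of 6 in SSX, and both CTAG units. None of the 10 MAGEB and 3 MAGEC units did. Both C4-2B ENZR libraries held 13 of the 41 units at 1 CPM or more, a smaller share than the 53.6% over all genes. Both LNCaP libraries held 10 of the 41, against 53.3% of all genes.

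**Figure D1:**
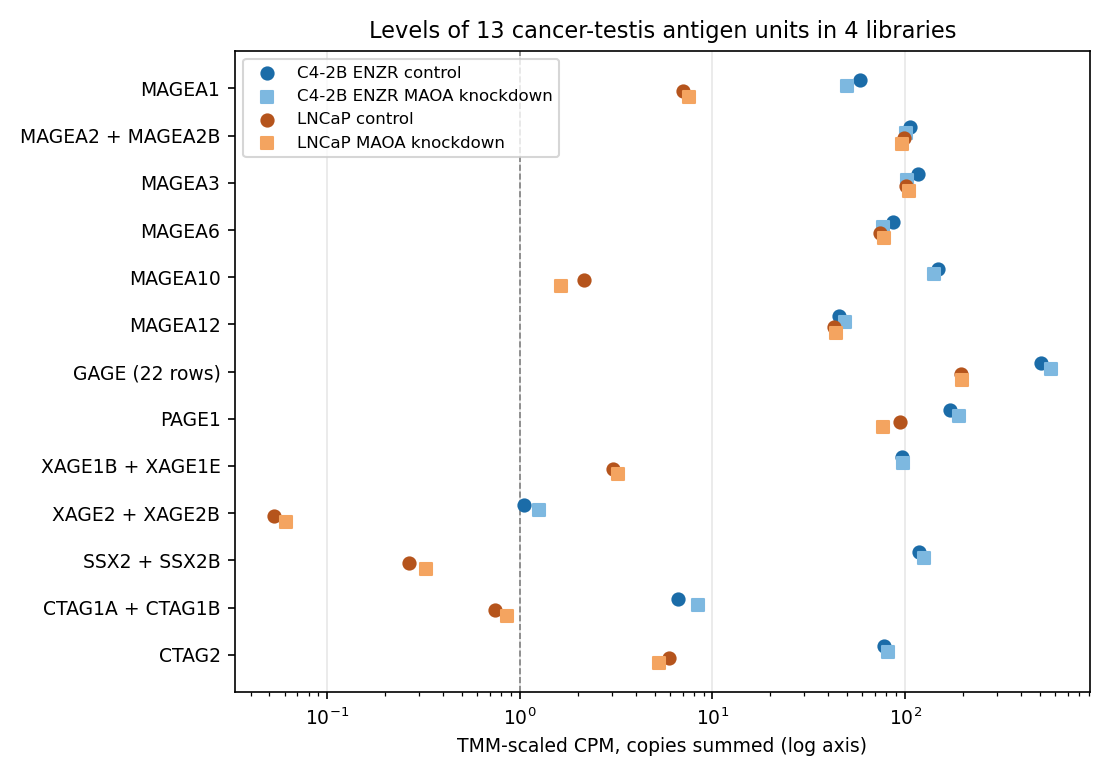
Level of each of the 13 detected units (rows) in TMM-scaled CPM on a log axis, with 1 point per library and near-identical copies summed; the dashed line marks 1 CPM. The C4-2B ENZR points of SSX2, MAGEA10, XAGE1 and CTAG2 sit more than 10-fold to the right of the LNCaP points, while the points of MAGEA2, MAGEA3, MAGEA6 and MAGEA12 lie within a narrow band.

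Together the family rows took 0.162%, 0.166%, 0.0676% and 0.0580% of all reads, or 1540, 1597, 626 and 617 CPM. Of the family reads, MAGEA genes gave 36.4% and 32.5% in C4-2B ENZR, a smaller part than the 52.1% and 53.8% of LNCaP. GAGE gave 33.0%, 35.8%, 31.2% and 31.9%, and PAGE 11.1%, 11.9%, 15.01% and 12.5%. As a fold, the make-up differed most in SSX, which gave 7.65% and 7.84% in C4-2B ENZR, but in LNCaP only 0.0901% and 0.0928%. XAGE (6.35% and 6.22% against 0.493% and 0.534%) and CTAG (5.45% and 5.62% against 1.07% and 0.998%) followed the same pattern. In bulk RNA a lower level can come from fewer expressing cells or from less RNA per cell, and these cannot be told apart.

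For levels between genes, CPM was divided by transcript length in kilobases (GENCODE 29 lengths, the median over copies), since a longer transcript yields more reads. On this scale the GAGE unit was highest in every library, at 963, 1082, 369 and 374 CPM per kb. GAGE proteins are small and acidic, and their genes stand in a tandem array on Xp11. PAGE1, a relative of GAGE named for its expression in prostate and next to that array in RefSeq order, came next at 256, 287, 141 and 116. The order after these parted between the lines. In C4-2B ENZR control XAGE1 (157), SSX2 (83.5) and CTAG2 (77.8) came before MAGEA3 (65.8), MAGEA10 (53.8) and MAGEA2 (53.5), with MAGEA6 (48.9), MAGEA1 (34.2), MAGEA12 (25.9), CTAG1 (6.66) and XAGE2 (1.70) below. In LNCaP control the next were MAGEA3 (57.4), MAGEA2 (49.5), MAGEA6 (42.1) and MAGEA12 (24.2), and the rest were far lower, from CTAG2 (6.02), XAGE1 (4.94) and MAGEA1 (4.13) through MAGEA10 (0.784) and CTAG1 (0.743) to SSX2 (0.187) and XAGE2 (0.0855). Neighbours in this order overlapped over the 2 libraries of a line in the case of MAGEA10 with MAGEA2 (C4-2B ENZR) and of MAGEA10 with CTAG1 (LNCaP). Among all genes with a read and a length (17475, 17529, 18191 and 18090), the GAGE unit was at percentile 99.8 in both C4-2B ENZR libraries and at 99.3 and 99.2 in LNCaP. This sets a sum over many copies against genes outside the families whose copies were not summed. The length of a transcript in another annotation would move these levels.

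The difference between the lines was described on RPM, reads over the plain library total, which does not use the TMM factors of the separately normalized tables. SSX2, CTAG1 and XAGE2 reached 1 CPM only in C4-2B ENZR and so had to be higher there. They were left out of the counts, which cover the 10 units at 1 CPM or more in all 4 libraries and are set beside all genes past that level. Taking the lower C4-2B ENZR library over the higher LNCaP library, 5 of the 10 units were at least 2-fold higher in C4-2B ENZR (6.69% of genes) and 3 at least 10-fold (0.14% of genes). Both C4-2B ENZR libraries were above both LNCaP libraries for 7 of 10 units (49.0% of genes), and the opposite held for 0 (31.4% of genes). With 1 library per group this has no test, and the lines differ in drug and in a suffix of their library labels too.

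SSX2, a nuclear repressor whose gene is fused to SS18 in synovial sarcoma, showed the widest gap. SSX2 with SSX2B was at 118, 125, 0.264 and 0.327 CPM, from 2911, 3073, 15 and 16 reads. The nearest libraries were 403-fold apart in RPM, and the other SSX genes stayed at 0.159 CPM or less throughout. MAGEA10 was at 147, 141, 2.15 and 1.64 CPM, a gap of 63.1-fold. It stands before MAGEA3 in RefSeq order, with the receptor genes GABRA3 and GABRQ between them, and part of its 50-base windows (15.7%) occur in other transcripts, chiefly the readthrough MAGEA10-MAGEA5, which had 8, 6, 0 and 0 reads.

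XAGE1, a GAGE relative, was at 96.4, 98.1, 3.03 and 3.23 CPM, or 31.0-fold apart. CTAG2, the gene of the antigen LAGE-1, was at 77.3, 81.3, 5.97 and 5.30 CPM (12.6-fold). CTAG1, which encodes the vaccine target NY-ESO-1 in a pair of copies, was lower at 6.63, 8.46, 0.740 and 0.860 CPM (8.65-fold). Both CTAG genes neighbour each other on Xq28, and 43.1% of the 50-base windows of CTAG2 also occur in the copies of CTAG1. XAGE2 had only 26, 31, 3 and 3 reads. MAGEA1, the antigen through which the MAGE family was found, was at 58.5, 49.8, 7.07 and 7.51 CPM (6.77-fold).

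GAGE and PAGE1 were high in both lines with smaller gaps. The GAGE unit was at 508, 571, 195 and 197 CPM, 2.54-fold apart, and PAGE1 at 170, 191, 93.7 and 76.8 CPM, 1.77-fold apart.

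In contrast, MAGEA2, MAGEA3, MAGEA6 and MAGEA12, which lie close together on Xq28, were at like levels in the lines. MAGEA3 was at 116, 102, 101 and 105 CPM. MAGEA6 was at 86.1, 77.0, 74.2 and 77.7 CPM. The MAGEA2 unit, with MAGEA2B, was at 106, 101, 98.2 and 96.5 CPM. For these 3 units the libraries of the lines overlapped in RPM, and the lower C4-2B ENZR library was at 0.971, 0.998 and 0.985 of the higher LNCaP one. MAGEA12 was at 45.6, 48.8, 42.7 and 43.6 CPM, with the nearest libraries 1.04-fold apart. MAGEA3 and MAGEA6 proteins bind the ubiquitin ligase TRIM28, whose gene was at 530, 426, 570 and 517 CPM.

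Of the other genes in that stretch, the CSAG genes were also detected in both lines. CSAG1, another cancer-testis gene, was at 32.7, 38.4, 28.7 and 32.0 CPM, and CSAG3, of the same family, at 44.4, 47.1, 46.6 and 62.7 CPM. On one side GABRQ, a GABA receptor subunit gene, had at most 9 reads. On the other, CETN2, a centrosomal and DNA repair gene, was at 36.0, 37.5, 18.7 and 22.6 CPM and so higher in both C4-2B ENZR libraries. No row carried the symbol CSAG2, so it has no values. Summed over MAGEA2, MAGEA3, MAGEA6 and MAGEA12 the level was 354, 329, 316 and 323 CPM.

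**Figure D2:**
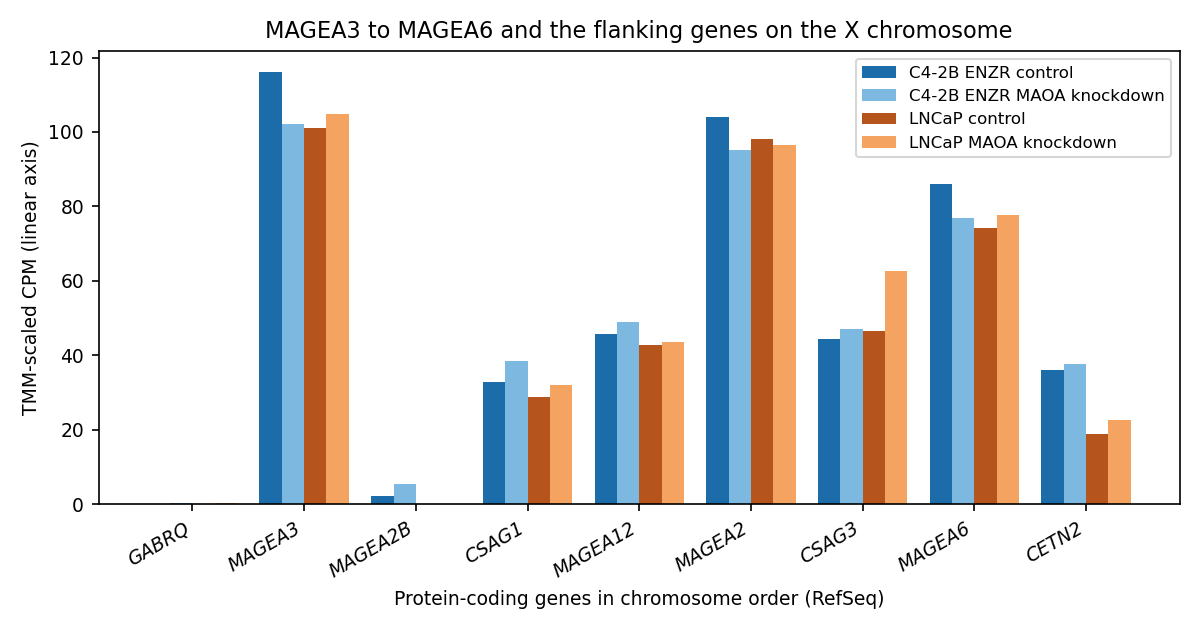
TMM-scaled CPM (linear axis) of the protein-coding genes from GABRQ to CETN2 in RefSeq order along the X chromosome, with 1 bar per library. CSAG2, which had no row, is left out. Bars of MAGEA3, MAGEA2 and MAGEA6 are of like height in all 4 libraries (MAGEA3 between 101 and 116 CPM), and GABRQ is at or near 0; most reads of MAGEA2 and MAGEA2B cannot be assigned between them.

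The 20 units with reads below 1 CPM reached at most 39 reads in a library (MAGEB10 in LNCaP knockdown, 0.798 CPM) and at most 0.809 CPM (MAGEB6 in C4-2B ENZR control, 20 reads). MAGEB6 had 20, 12, 3 and 0 reads, MAGEB10 had 16, 15, 27 and 39, and XAGE3 had 9, 1, 0 and 0. MAGEA11, known as a coregulator of the androgen receptor, had 1, 1, 6 and 7 reads. MAGEA4 had 2, 1, 3 and 1, and PAGE4, a PAGE gene known from normal prostate, had 0, 2, 8 and 3. MAGEC2, a T-cell target in melanoma, had 0, 0, 2 and 4. Listed at 0 in every library were MAGEB1, MAGEB2, MAGEB3, MAGEB4, MAGEB16, PAGE3, SSX7 and XAGE5. These counts are too few for ratios between groups, and a count of 0 allows up to the 3-read level of each library.

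How MAOA knockdown moved the members was first read within each line, as log2 of knockdown over control after adding 1 CPM to each, for units with a mean of at least 1 CPM in that line. A 95% interval of the read ratio (exact conditional, Clopper-Pearson, without the added 1 CPM) covers counting error only, not culture-to-culture spread or misassigned reads. In C4-2B ENZR 0 of 13 units were 2-fold apart (0.413% of all genes were). Their median log2 ratio was 0.07, against 0.00 over all genes, with a range of −0.23 to 0.31, and 8 of 13 were above 0 (50.4% of genes). In LNCaP 0 of 10 units were 2-fold apart (0.82% of genes), and the median was 0.02 with a range of −0.28 to 0.08, with 6 of 10 above 0 (66.6% of genes). The LNCaP table as a whole was shifted, with a median of 0.11 over all genes, and genes at 10 CPM or more had a median of 0.13 (−0.01 in C4-2B ENZR). Relative to that 0.13 the median of the 10 units was −0.11, and all 10 lay below 0, as did 53.2% of all genes.

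In C4-2B ENZR the counting interval lay above equality for GAGE, PAGE1, SSX2 and CTAG1 and below it for MAGEA1, MAGEA3 and MAGEA6, with small ratios throughout. The GAGE unit was 0.17 higher in the knockdown on the log2 scale (interval 0.13 to 0.20), PAGE1 0.16 higher (0.10 to 0.22), SSX2 0.09 higher (0.01 to 0.16) and CTAG1 0.31 higher (0.05 to 0.66). MAGEA1 was at −0.23 (−0.34 to −0.12), MAGEA3 at −0.18 (−0.26 to −0.11) and MAGEA6 at −0.16 (−0.25 to −0.07). MAGEA3 and MAGEA6 share 54.9% and 52.0% of their 50-base windows with each other, so their ratios are not separate. Their sum was at −0.17 (−0.23 to −0.12). Such intervals excluded equality above for 4 of 13 units (21.5% of genes) and below for 3 (21.7% of genes). These 7 units stand against 43.2% of genes off equality either way, so deviations of this size were common in the table. CTAG2 at 0.07, XAGE1 at 0.02, MAGEA12 at 0.10, MAGEA2 at −0.08, MAGEA10 at −0.06 and XAGE2 at 0.14 had intervals that held 0.

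In LNCaP the interval excluded equality for PAGE1 below (−0.28, interval −0.35 to −0.23; 19.2% of genes) and for MAGEA6 above (0.07, interval 0.00 to 0.13; 49.1% of genes). These 2 of 10 units stand against 68.3% of genes off equality either way. The sum of MAGEA3 and MAGEA6, whose windows are partly shared, was at 0.06 (0.02 to 0.10). Relative to the shift of all genes MAGEA6 was at −0.07 and PAGE1 at −0.42, and 8 of the 10 units then had an interval below equality (33.8% of genes) and 0 above (32.1% of genes). The GAGE unit was at 0.02 (−0.12 after centring), MAGEA3 at 0.05 (−0.08), MAGEA1 at 0.08 (−0.06) and MAGEA2 at −0.03 (−0.16). MAGEA12 was at 0.03 (−0.11), XAGE1 at 0.07 (−0.06), CTAG2 at −0.15 (−0.28) and MAGEA10, from 122 and 80 reads, at −0.26 (−0.39). SSX2, CTAG1 and XAGE2 were too low in LNCaP for a ratio. PAGE1 was thus higher in the C4-2B ENZR knockdown and lower in the LNCaP knockdown under both scalings, and the difference between the lines was not tested.

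**Figure D3:**
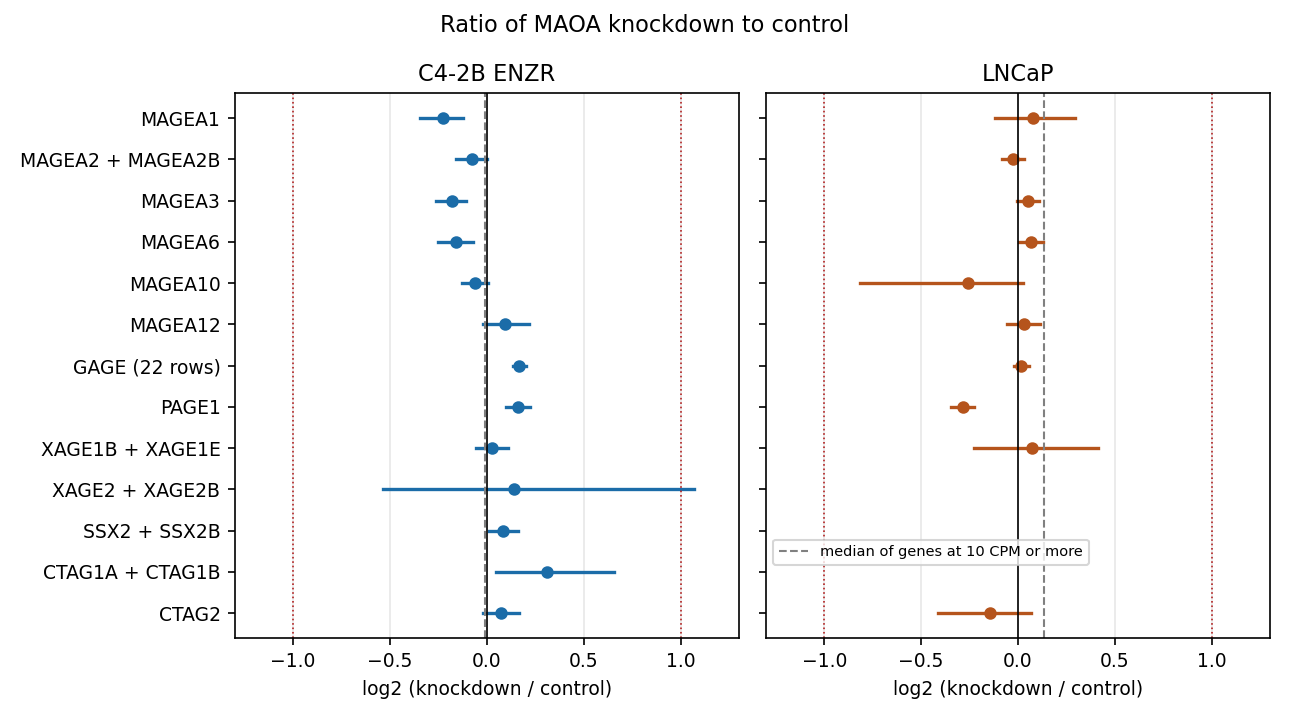
Log2 ratio of knockdown to control for each unit with a mean of at least 1 CPM in that line, as points with 95% counting intervals (C4-2B ENZR left, LNCaP right). Dotted lines mark 2-fold and the dashed line the median of genes at 10 CPM or more (−0.01 and 0.13); no point passes 2-fold, and PAGE1 lies right of 0 in C4-2B ENZR and left of it in LNCaP.

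Over both lines, limma on the 2 within-line ratios tested 13111 genes, of which 568 rose (4.33%) and 204 fell (1.56%) at a Benjamini-Hochberg adjusted p under 0.05. Of the 10 family units tested, 0 were called by limma (5.89% of genes were, either way), 0 had an unadjusted p under 0.05, and edgeR and DESeq2 also called 0. The 95% intervals of their mean log2 change all lay between −0.44 (MAGEA10) and 0.36 (GAGE). MAGEA3, for example, had a mean of −0.07 (interval −0.31 to 0.18) and PAGE1 of −0.06 (−0.31 to 0.18). These values do not show that the levels were equal. With 1 residual degree of freedom the fit rests on the spread pooled over genes.

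Single rows of near-identical copies gave ratios that the summed units did not. The SSX2 row went from 75.7 to 1.75 CPM in C4-2B ENZR, a log2 ratio of −4.80, while the SSX2B row went from 41.97 to 123 CPM (1.53). Their sum had a ratio of 0.09. SSX2 held 64.3% of the reads of the pair in the control and 1.40% in the knockdown. All 50-base windows of SSX2 (100%) occur in other genes, SSX2B among them, as do 88.2% of those of SSX2B, so most reads of the pair cannot be assigned to 1 copy.

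The same was seen for GAGE rows in LNCaP. GAGE4 was at 26.4 CPM in the control and at 0 in the knockdown, GAGE2B at 0.282 and 27.0 CPM, and the GAGE sum at 195 and 197 CPM. GAGE2D (50.0%, 52.5%, 46.7% and 42.3% of the GAGE reads) and GAGE12F (48.6%, 47.2%, 38.8% and 43.0%) took most reads in every library, and 16 of 22 GAGE rows were at 0 in all. Since 96.1% of the 50-base windows of GAGE12F occur in other genes, a row at 0 does not show a silent copy. MAGEA2B took 2.05% and 5.37% of the MAGEA2 reads of the C4-2B ENZR libraries, and 0 of those of LNCaP. The rows of CTAG1A and CTAG1B held equal values in every library, as did those of XAGE1B and XAGE1E. PAGE1 shares 0% of its windows with other genes and MAGEA1 0.662%, so their values do not depend on such splitting.

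**Figure D4:**
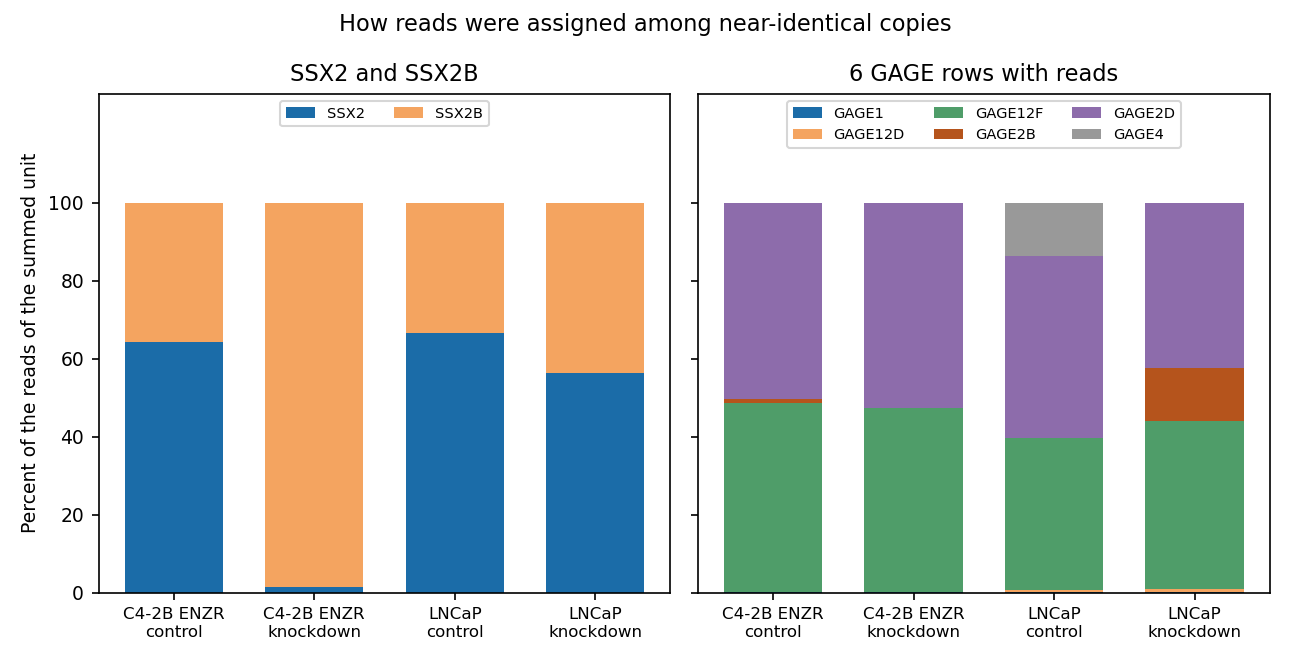
Percent of the reads of a summed unit (linear axis) that each deposited row held, per library, for SSX2 with SSX2B (left) and the 6 GAGE rows with any read (right). The SSX2 share goes from 64.3% in C4-2B ENZR control to 1.40% in the knockdown, and GAGE4 and GAGE2B trade places between the LNCaP libraries (13.5% and 13.7%). The LNCaP bars of SSX2 rest on 15 and 16 reads.

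Of the other 9 member rows, the readthrough MAGEA10-MAGEA5 had too few reads for a ratio, and the CTAGE genes and SSX2IP carry the letters without belonging to these families. CTAGE5, listed as MIA2 in RefSeq, works in cargo export from the endoplasmic reticulum. It was at 34.2, 42.7, 20.6 and 30.9 CPM, higher in the knockdown of both lines (log2 0.31 and 0.56). After centring its LNCaP ratio was 0.43. In limma over both lines, 10 family units and 4 of these other members were tested, and 4.33% of all genes rose. CTAGE5 was the 1 member that rose, by 0.44 (SE 0.13, interval 0.17 to 0.70, adjusted p = 0.0269). That call was lost in edgeR (0.39, adjusted p = 0.0897) and in DESeq2 (0.39, adjusted p = 0.266).

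SSX2IP, a centrosome and cell adhesion protein that binds SSX2, was at 117, 107, 52.0 and 65.2 CPM. Its ratio in C4-2B ENZR was −0.13 (interval −0.21 to −0.06), and that of LNCaP was 0.32 (0.25 to 0.40), or 0.19 after centring, and limma over both lines gave 0.09 (adjusted p = 0.754). CTAGE4, CTAGE6, CTAGE8, CTAGE9 and CTAGE15 share most of their 50-base windows with other genes (84.2% to 100%), and were summed by a choice made after seeing the data. The sum was at 31.1, 31.3, 16.8 and 12.6 CPM, with ratios of 0.01 (−0.13 to 0.16) and −0.39 (−0.56 to −0.27). CTAGE1 and CTAGE6 were at 0 throughout.

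Genes around the antigens were taken from 6 lists, chosen with earlier results of these data known. Over all genes tested with limma, 4.33% rose and 1.56% fell. Of 28 other X-linked cancer-testis genes found, 21 were below 1 CPM in all 4 libraries, and of 4 tested with limma 0 rose and 0 fell. PASD1 (46.0, 42.4, 0.0352 and 0 CPM) and SAGE1 (28.3, 31.8, 0.0705 and 0.0614 CPM) were high in C4-2B ENZR and near 0 in LNCaP, as SSX2 was. MAGEA10 was also far lower in LNCaP, but stayed above 1 CPM there (2.15 and 1.64 CPM). Of 30 autosomal cancer-testis genes 13 were tested, and again 0 rose and 0 fell. PRAME, a T-cell target and repressor of retinoic acid receptor signalling, was at 184, 178, 126 and 130 CPM. It was high in both lines, with ratios of −0.05 and 0.04.

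Of the MAGE genes expressed in many tissues, 8 of 12 were tested and 0 called (5.89% of all genes tested were). MAGED2 was at 92.0, 83.1, 75.5 and 107 CPM, with ratios of −0.14 and 0.50. Of 8 partners that MAGE proteins bind in ubiquitin ligases 7 were tested and 0 called, and of 5 SSX partners 4 were tested and 0 called; SS18 was at 105, 95.8, 56.6 and 61.9 CPM. Among 22 genes of DNA methylation and repression, all tested, 0 rose and 1 fell (4.33% and 1.56% of all genes tested). This was UHRF1, which brings the maintenance methyltransferase to replicated DNA, at 96.3, 70.2, 64.2 and 45.5 CPM. Its mean log2 change was −0.47 (SE 0.12, limma adjusted p = 0.00679), with edgeR at −0.54 (adjusted p = 0.0181) and DESeq2 at −0.54 (adjusted p = 0.0130). DNMT1, that methyltransferase, was at 287, 253, 197 and 153 CPM and did not pass (limma −0.28, adjusted p = 0.211). Family units below 1 CPM in the control of a line were below 1 CPM in its knockdown as well. The share of all genes that did so was not counted. With 1 library per group and no measure of methylation, this cannot be tied to UHRF1 either way. Whether UHRF1 bears on any member was not tested.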

How the data were processed

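RNA sequencing libraries of the 4 groups were used, 1 per group. Per the submitters' processing notes, Bowtie2 2.1.0, RSEM 1.2.15, edgeR and the hg19 build were named, without roles. No edgeR version or gene annotation is given in the sources used here. CPM values deposited by the authors stood in the C4-2B ENZR table. The LNCaP table deposited by the authors held a signal on the same scale (its knockdown column sums to 1064501). The other columns sum to 949450 and 962919 in C4-2B ENZR and to 925958 in LNCaP control, so no column is plain CPM. Both were TMM-scaled, each by itself. In each column 100% of the values were whole multiples of 1 read within a tolerance of 0.01 read, which gave the reads. No per-sample column was left unused (0).

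Ratios were log2((knockdown + 1)/(control + 1)) within a table, for a mean of at least 1 CPM; the 2-fold rule was a log2 ratio of 1. Copies were summed first. Of the 79 members, 71 matched RefSeq symbols (6 by synonym), and 67 had transcripts for the search of shared 50-base windows in GENCODE 29. Centring subtracted the median ratio of genes at 10 CPM or more. limma 3.58.1 (R 4.3.3) fitted the 2 within-line ratios of all genes with a trended prior and Benjamini-Hochberg adjustment; it was tested on simulated data. edgeR 4.0.16 and DESeq2 1.42.0 on the recovered reads, with line as a term, were alternatives. The design was written for CPM and was kept for the LNCaP signal. Each library's depth and 3-read floor stand in the text.

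Members were all rows the letters give, without antisense symbols and pseudogenes. The text names every unit at 1 CPM, the units below it with the most reads or a known role in prostate or as a target, and list genes that were called or are the best known. These last choices, the CTAGE sums and the limit of counts between lines to units at 1 CPM in all 4 libraries were made after seeing values. The members and lists were chosen with earlier results of these data known. As deposited, 28 symbols look like dates and 4 rows share a symbol, none of them a member.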

Additional observations from a re-analysis of the deposited data

Results flagged for a closer look

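PAGE1 and SSX2IP moved in opposite directions in the lines, with counting intervals that leave out equality in each. The log2 ratio of knockdown to control of PAGE1 in C4-2B ENZR was 0.16, against −0.28 in LNCaP. That of SSX2IP in C4-2B ENZR was −0.13, against 0.32 in LNCaP. Both pairs kept opposite signs after centring (PAGE1 −0.42 and SSX2IP 0.19 in LNCaP). MAGEA6 also met this on the deposited scale (−0.16 in C4-2B ENZR and 0.07 in LNCaP), but its LNCaP ratio was −0.07 after centring. Such intervals left out equality for 43.2% of all genes in C4-2B ENZR and 68.3% in LNCaP. How many genes did so in opposite directions was not counted. The difference between the lines was not tested, since each line has 1 library per group.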

How the results depend on the processing

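In C4-2B ENZR the ratios of the 19 units given kept their direction and stayed within their counting error under both other pseudocounts (0.1 and 5) and both rescalings. In LNCaP the scaling mattered: the median of the 10 family units was 0.02, but −0.11 after centring and −0.18 with both libraries rescaled to the same sum, and the MAGEA6 ratio of 0.07 turned to −0.068 after centring and −0.13 after rescaling. Besides MAGEA6, centring moved 7 of 14 LNCaP ratios past their counting error and rescaling 8. With single rows in place of summed copies, 4 members were 2-fold apart in C4-2B ENZR (SSX2, SSX2B, GAGE2B and MAGEA2B) and 2 in LNCaP (GAGE2B and GAGE4), against 0. The 1 member called by limma over both lines, CTAGE5, was not called in edgeR, in DESeq2, with rescaling to the same sum (adjusted p = 0.0934) or without a filter on low values (0.648), which each left 0 members called. Its adjusted p was between 0.0233 and 0.0367 in the remaining settings. UHRF1 lost its call only without the filter (adjusted p = 0.648). All genes called rose against fell as 568 to 204, but as 590 to 555 after centring, 356 to 664 after rescaling, 171 to 123 in edgeR, 130 to 89 in DESeq2 (1017 genes without an adjusted p) and 0 to 0 without the filter. The fits over both lines pair each knockdown with the control of its line. Pairing by replicate number was not possible because the labels carry none and each group has 1 library; for the same reason no replicate could be left out. Depth limits the 20 units below 1 CPM to at most 39 reads in a library, and 50-nt reads limit every statement on single copies.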

Other observations

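Other cancer-testis genes are given in the same order of libraries as above. BRDT, a testis bromodomain protein, was at 6.75, 5.53, 0.529 and 0.450 CPM. TPTE, a testis phosphatase relative, was at 3.36, 3.33, 0.0529 and 0.0409 CPM, and CT45A4 at 4.85, 3.46, 0 and 0 CPM. These 3 genes, like SSX2, were higher in both C4-2B ENZR libraries. NXF2 and NXF2B, copies of an RNA export factor that held equal values, went the other way at 5.82, 5.77, 9.44 and 9.48 CPM each. ATAD2, a chromatin ATPase expressed in dividing cells, was at 274, 234, 173 and 170 CPM. KIF20B, a mitotic kinesin, was at 67.2, 63.6, 17.3 and 11.1 CPM, and its log2 ratio of −0.59 in LNCaP did not pass limma over both lines (adjusted p = 0.123). OIP5, a centromere protein, was at 31.2, 27.5, 17.5 and 11.4 CPM, with ratios of −0.18 and −0.58 (limma adjusted p = 0.0918).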
